A study of Mus musculus with 2 samples.

Results

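The clade B serpins described here were 10 genes of a family of protease inhibitors, expressed in epidermis and in the white cells that enter it: Serpinb1a, Serpinb2, Serpinb3a, Serpinb3b, Serpinb3c, Serpinb5, Serpinb6a, Serpinb8, Serpinb9 and Serpinb12. They were chosen by name, as the array probes annotated to these symbols or to transcripts that now carry them, and were 10 of 27594 genes or transcripts with a probe. Their 17 probes were read in skin RNA from Pla2g2f-transgenic mice (Pla2g2f-Tg/+) and from littermate controls without the transgene. Pla2g2f encodes a secreted phospholipase A2, and the series is titled for alopecia and an epidermis thickened as in psoriasis. All mice had a C57BL/6 background, were 25 days old and had no other labelled treatment, and each genotype was 1 pool of RNA from 4 mice. No source used here gives the promoter or the cell type that drives the transgene. Each of 2 two-colour Agilent arrays carried transgenic RNA against control RNA, 500 ng per labelling, with transgenic RNA in Cy5 on array 1 and in Cy3 on array 2.

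Nothing in the labels gives separate pools for the arrays, which were therefore counted as 1 replicate, with no test across mice possible. Values are log2 ratios of transgenic over control, where 1 is a 2-fold difference, and their only measure of spread is how far the arrays lay apart, a technical one. A gene was called when it was at least 2-fold apart in the same direction on each array. Over the 10454 genes tested, whose probe stood well above background in the control or the transgenic channel of array 1, the median log2 ratio was -0.0079 and the arrays differed by 0.23 in the median (absolute value). The log2 ratios of Pla2g2f itself were 0.54 and 0.34, a mean of 1.36-fold that was not called. The sources used here do not say whether the transgene's transcript contains its probe. Of these 10454 genes, 389 were higher and 176 lower in the transgenic pool. Spike-in control RNAs read higher in the channel that carried transgenic RNA, with a median log2 ratio of 0.46 (0.38 on array 1 and 0.58 on array 2). Centred on them, 176 genes (1.68%) were higher and 457 (4.37%) lower.

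Serpins are suicide inhibitors: a protease cuts an exposed loop of the serpin, the serpin changes shape, and the enzyme is trapped in a covalent complex. Clade B members lack a classical signal peptide and act mostly inside cells, where they restrain lysosomal cysteine proteases, granule serine proteases and proteases released during cell damage. In the mouse they lie in gene clusters on chromosomes 1 and 13, and several ancestral genes have been copied there, among them the gene that corresponds to the human squamous cell carcinoma antigens, which became the Serpinb3 group.

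The results turn on the probes of the Serpinb3 group, whose copies resemble each other, so their sequences are shown first. All are taken from the scanner file and lie on chromosome 1 of mm8, the build of the array design. Probes that map to an unbroken stretch of the genome are shown by 30 of their bases, and those that map across a gap, as probes that join exons do, are shown whole, with the genomic span they cover. Capitals mark a stretch of 19 bases that the Serpinb3b probe and the brighter Serpinb3c probe have in common but for 3 bases.
Serpinb3b probe A_51_P207763, minus strand, chr1:108981584-108981643, its bases 1 to 30: CTGTGTGAAGCAAGCTAGAgaaaatcagac
Serpinb3c probe A_51_P100997, minus strand, chr1:109098884-109098943, its bases 31 to 60: gtatctgtgccCTGTGTCAAGTGAGCTAGA
Serpinb3c probe A_51_P101004, minus strand, chr1:109099572-109100253: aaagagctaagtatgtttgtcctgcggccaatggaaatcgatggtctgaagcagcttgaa
Serpinb3a probe A_51_P230599, minus strand, chr1:108876114-108876892: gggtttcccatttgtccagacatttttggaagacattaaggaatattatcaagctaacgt
Serpinb3a probe A_52_P277455, minus strand, chr1:108875135-108876068: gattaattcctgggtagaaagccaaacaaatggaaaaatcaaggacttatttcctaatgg
Serpinb3d probe A_52_P565455, minus strand, chr1:108909230-108910322: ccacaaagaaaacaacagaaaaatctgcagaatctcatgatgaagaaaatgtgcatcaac
In the matched stretch 16 of 19 bases were equal, and the Serpinb3c probe differed by G7C, C11T and A12G, counted from the 5′ end of the Serpinb3b probe with its base first. The start of the Serpinb3b probe and the end of the Serpinb3c probe therefore read the same part of the copied transcript, and the rest of each probe reads a part that the other does not. No pair among these 6 probes shared an unbroken run of more than 8 bases, and none of the 5 probes of Serpinb3a, Serpinb3b and Serpinb3c, nor the brighter Serpinb12 probe, shared a run of 20 bases with any other probe on the array (0 probes). The array's own annotation lists Serpinb3a beside Serpinb3b for the Serpinb3b probe, and Serpinb3b beside Serpinb3c for the dimmer Serpinb3c probe. These runs were sought between probes and not in the transcripts of the other copies, so they do not show which copies a probe binds. How far each probe bound the transcripts of the other copies was not tested, so a value is given for the copy its probe is annotated to.

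In the transgenic pool 3 of the 10 serpins were higher, Serpinb3b, Serpinb3c and Serpinb12, and 0 were lower. Over all genes tested 3.72% were higher by the same rule, 1.68% were lower and 5.4% were called in either direction. A further 5 serpins were measured and not called (Serpinb1a, Serpinb2, Serpinb5, Serpinb6a and Serpinb8), and both probes of Serpinb3a and of Serpinb9 were dim in both channels. Of the 17 probes, 9 stood well above background on array 1 (5 of them in both channels) and 8 were dim in both channels. Without any filter on dim probes all 10 serpins had a value, the same 3 were higher, and 1.54% of 27594 genes were. Centred on the spike-ins the same 3 were called, with means of 3.33, 2.80 and 2.42. The 3 higher serpins passed the filter through the transgenic channel alone, and among the 565 genes of which that was true, 25.8% were called higher. Genes that enter in that way are selected for a higher transgenic signal, so the share of higher serpins among those measured supports nothing further.

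**Figure D1:**
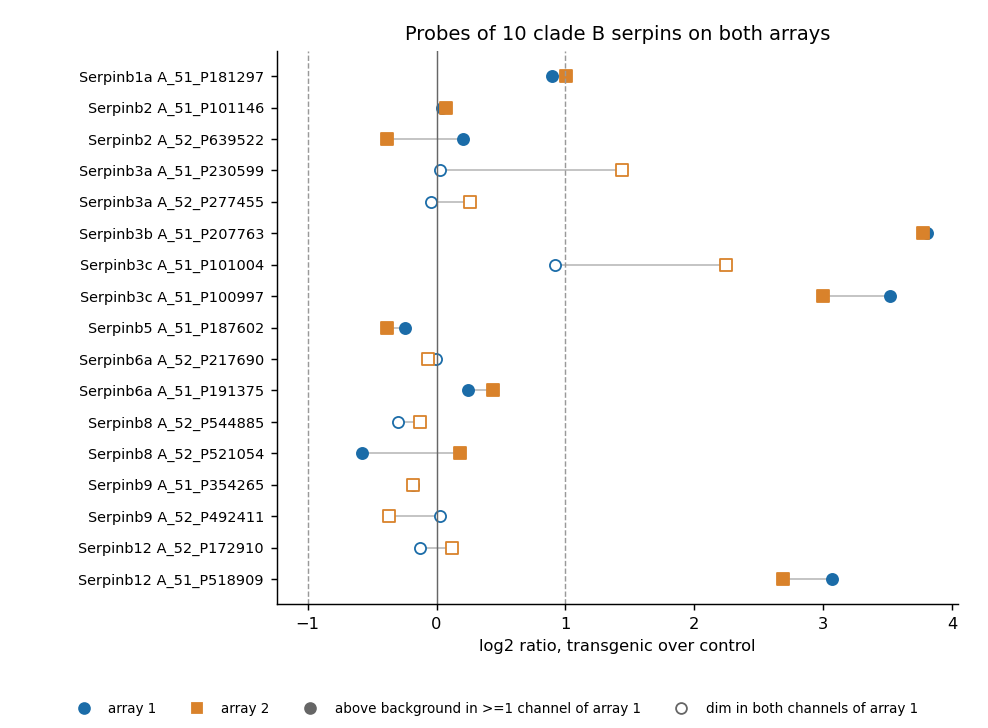
Log2 ratio of transgenic over control (x axis) of each of the 17 probes of the 10 serpins (y axis), with array 1 as circles, array 2 as squares and a line joining them; open symbols are probes dim in both channels of array 1, and dashed lines mark 2-fold. The probes of Serpinb3b at 3.79, Serpinb3c at 3.26 and Serpinb12 at 2.88 lie to the right of the others on both arrays.

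Serpinb3b and Serpinb3c belong to the mouse group whose human counterparts inhibit papain-like cysteine cathepsins and some chymotrypsin-like serine proteases. The Serpinb3b probe had a processed signal, in the scanner program's arbitrary units, of 137 in the control pool and 1917 in the transgenic pool on array 1. The control signal was not well above background and the transgenic one was. Array 1 gave a log2 ratio of 3.81 and array 2 one of 3.77, so the arrays differed by 0.03, and the mean corresponds to 13.8-fold. Against the lowest control signal that was well above background on array 1, 199, Serpinb3b was at least 9.63-fold higher there. Such a bound comes from array 1 alone, sets the dim channel to that lowest signal and is open to dye bias. It also holds only for the deposited processing: with another background correction the array 1 log2 ratio of Serpinb3b was 1.36, below the bound.

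For Serpinb3c the brighter probe read 105 in the control pool, not well above background, and 1206 in the transgenic pool on array 1. Array 1 gave a log2 ratio of 3.52 and array 2 one of 2.998, with a mean fold of 9.57 and a bound of at least 6.06-fold on array 1. The arrays thus differed by 0.52, more than for Serpinb3b and far less than the ratio itself. The other Serpinb3c probe, which joins exons across 682 bases of the genome, was dim in both channels, with signals of 101 in control and 191 in transgenic RNA. Its log2 ratios were 0.92 and 2.25, a mean of 1.58, in the direction of the brighter probe but with arrays 1.33 apart.

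Serpinb3a encodes another inhibitor of the same group. Its probe spanning 779 bases read 96.6 in the control and 98.5 in the transgenic pool on array 1, where its log2 ratio was 0.03, while array 2 gave 1.44. Its probe spanning 934 bases read 99.7 and 96.6, with log2 ratios of -0.05 on array 1 and 0.26 on array 2. All these signals were below the lowest one well above background, so Serpinb3a was not well above background in either pool, and on the first probe the arrays lay 1.41 apart. Serpinb3d, the remaining gene of the group in these data, also had a dim probe, with signals of 88.8 and 91.3 and log2 ratios of 0.04 and 0.12. The group thus divided into copies with a transgenic signal well above background, Serpinb3b and Serpinb3c, and copies without one, Serpinb3a and Serpinb3d. Their probes differ in place and in kind: the brighter ones map to an unbroken stretch, and those of Serpinb3a and Serpinb3d, like the dimmer Serpinb3c probe, map across a gap. Whether that difference bears on the division was not tested.

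**Figure D2:**
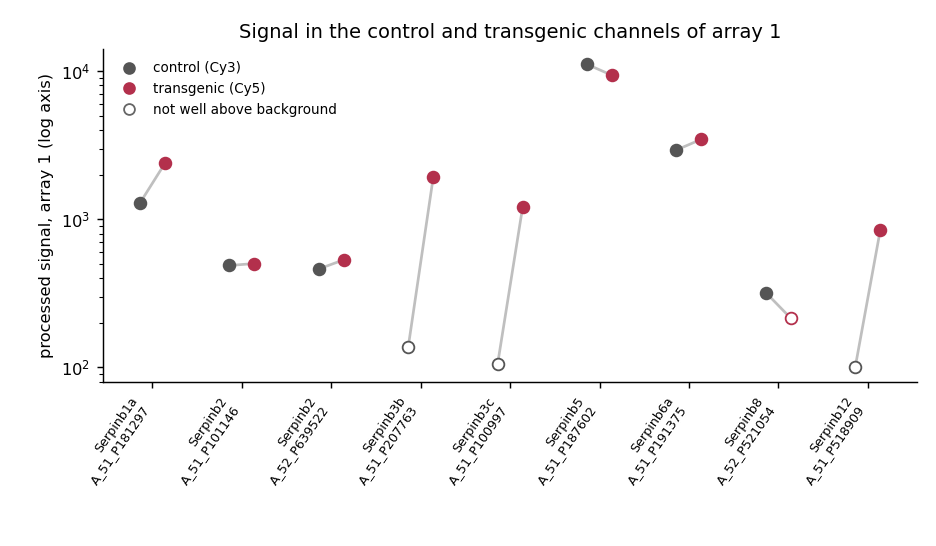
Processed signal on array 1 (y axis, log scale, arbitrary units) in the control channel (Cy3, grey) and the transgenic channel (Cy5, red) for the 9 serpin probes that were not dim in both channels (x axis); open circles are channels not well above background. The control circles of Serpinb3b, Serpinb3c and Serpinb12 are open, at 137, 105 and 100, while their transgenic circles are filled.

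Serpinb12, a single-copy gene, encodes an inhibitor of trypsin-like serine proteases. Its brighter probe, at chr1:108784331-108784390 of mm8, read 100 in the control and 845 in the transgenic pool. The ratios were 3.07 on array 1 and 2.69 on array 2 (log2), a mean of 7.37-fold, with a bound of at least 4.24-fold on array 1. Its other probe, 7122 bases away at chr1:108777149-108777208, was dim in both channels, at 96.9 and 88.7, with log2 ratios of -0.13 and 0.12. The call for Serpinb12 therefore rests on 1 of its 2 probes, of which 30 bases each are shown because they disagree.
Serpinb12 probe A_51_P518909, plus strand, its bases 1 to 30: tctattgcccttgaatctactctggctttt
Serpinb12 probe A_52_P172910, plus strand, its bases 1 to 30: ttgggaaacttctctccagaatagacagag
With array 1 recomputed from the raw spot signals by another background correction (normexp with loess), the array 1 log2 ratios were 1.36 for Serpinb3b, 1.15 for Serpinb3c and 0.85 for Serpinb12, so that Serpinb12 was no longer called and the others were. That correction adds an offset to both channels, which lowers ratios of dim probes. The recomputed ratios lie below the bounds given for the 3 serpins, so those bounds are not minima under every processing.

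Serpinb1a corresponds to the human inhibitor of neutrophil elastase, cathepsin G and proteinase 3. Its probe (chr13:32850318-32850377 of mm8, minus strand) was well above background in both pools, at 1287 in control and 2391 in transgenic RNA on array 1. Array 1 gave a log2 ratio of 0.89 and array 2 one of 1.003, a mean of 1.93-fold, so it reached 2-fold on array 2 only. It was called at a threshold of 1.5-fold on each array, at which 8.26% of all genes were higher, and not at 3-fold, where 1.34% were higher and Serpinb3b, Serpinb3c and Serpinb12 were still called. Centred on the spike-ins its mean was 0.49.

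Serpinb6a, whose product inhibits cathepsin G and trypsin-like proteases, had a probe (chr13:33926250-33926309 of mm8, minus strand) well above background in both pools, at 2933 and 3470. The log2 ratios were 0.24 and 0.43, above 0 on both arrays and short of 2-fold. The mean of 0.34 became -0.12 when centred on the spike-ins, so its direction depended on the scale. A second Serpinb6a probe was dim in both channels, with log2 ratios of -0.0019 and -0.063.

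Serpinb5 encodes maspin, a clade B serpin of epithelial cells that does not inhibit proteases. Its probe (chr1:108709555-108709614 of mm8, plus strand) read 11119 in the control and 9365 in the transgenic pool on array 1, well above background in both. Both arrays gave a negative log2 ratio, -0.25 and -0.38, and the mean was -0.32. It was the 1 measured serpin of the 10 that lay below 0 on both arrays, and it stayed short of 2-fold when centred on the spike-ins, at -0.77.

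Serpinb2 encodes plasminogen activator inhibitor type 2, which inhibits the urokinase-type plasminogen activator. Its 2 probes share 20 bases, so they are not independent, and both were well above background in both pools. One read 462 in control and 532 in transgenic RNA, with log2 ratios of 0.21 on array 1 and -0.39 on array 2. The other read 487 and 502, with log2 ratios of 0.04 and 0.08. The means were -0.09 and 0.06, and the first probe changed sign between the arrays while the second differed by 0.03 between them.

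Serpinb8, which inhibits the proprotein convertase furin in vitro, was measured by a probe that joins exons across 1746 bases. Its signal on array 1 was 320 in control RNA and 214 in transgenic RNA, of which the latter was not well above background. Array 1 gave a log2 ratio of -0.58 and array 2 one of 0.19, so the arrays disagreed in direction and the mean of -0.20 was smaller than their difference of 0.76. A second probe was dim in both channels, at -0.30 and -0.13. Serpinb9, the inhibitor of granzyme B in cytotoxic lymphocytes, was not well above background in either pool: 1 probe gave -0.18 on both arrays and the other 0.02 and -0.37, all dim. Over the 8 serpin probes dim in both channels the mean log2 ratios ran from -0.21 to 1.58, and the highest was the Serpinb3c probe described above.

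The Serpinb3 copies were then set against the serpins that are single-copy in the mouse, Serpinb2, Serpinb5, Serpinb8 and Serpinb12. The median log2 ratio of the 2 measured copies was 3.52 and that of the 4 single-copy serpins -0.14, a difference of 3.67 with an SD of 0.141 between the arrays (3.68 on array 1, 3.48 on array 2). Taking all 7 serpins outside the Serpinb3 group, of which 6 were measured, gave a median of 0.12 and a difference of 3.40. Serpinb3a was left out of this contrast because both of its probes were dim, and Serpinb3b and Serpinb3c entered it through the transgenic channel alone, so its size describes copies admitted for a high transgenic signal against a dim control. Both lay above every measured single-copy serpin, but Serpinb12, at 2.88, lay closer to Serpinb3c at 3.26 than to the next single-copy serpin, Serpinb2, at -0.09. Without Serpinb12 the single-copy median was -0.20 and the difference 3.72. With 1 pool per genotype this difference has no test across mice. With normexp and loess on array 1, averaged with array 2 as deposited, the difference was 2.37. On array 1 so recomputed, the log2 ratios were 1.36 for Serpinb3b and 1.15 for Serpinb3c. There Serpinb12 was at 0.85, Serpinb2 at 0.08, Serpinb8 at -0.09 and Serpinb5 at -0.24.

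Along the chromosomes, in the RefSeq order of genes, the higher serpins were not all neighbours. The cluster on chromosome 1 holds 12 clade B genes in the order Serpinb5, Serpinb12, Serpinb13, Serpinb3a, Serpinb3d, Serpinb3b, Serpinb3c, Serpinb11, Serpinb7, Serpinb2, Serpinb10 and Serpinb8. Serpinb3b and Serpinb3c are adjacent, while Serpinb12 is set apart from them by Serpinb13, Serpinb3a and Serpinb3d, whose probes were all dim. Next to Serpinb3c on its other side, Serpinb11, which in the mouse encodes an inhibitor of trypsin-like proteases, was well above background in both pools at 393 and 357, with log2 ratios of -0.14 and -0.17. On the other side of Serpinb12 lies Serpinb5, at -0.32. The cluster on chromosome 13, with 16 clade B genes, held no called serpin among Serpinb1a, Serpinb6a and Serpinb9 or the others with a probe there.

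**Figure D3:**
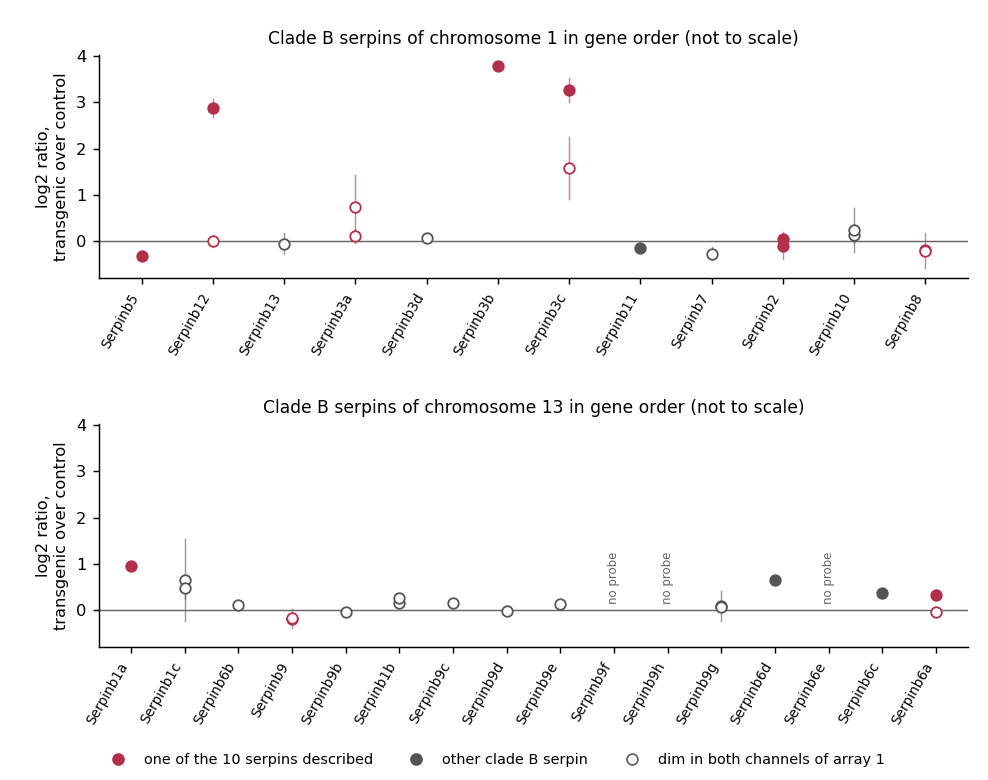
Mean log2 ratio of transgenic over control (y axis) of every probe of the clade B serpins in gene order on chromosome 1 (upper panel) and chromosome 13 (lower panel), spaced evenly; vertical lines join the values of the 2 arrays, red marks the 10 serpins and open circles are probes dim in both channels of array 1. On chromosome 1 the filled circles of Serpinb12, Serpinb3b and Serpinb3c lie between 2.88 and 3.79, while Serpinb5, Serpinb11, Serpinb2 and Serpinb8 lie between -0.32 and 0.06.

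Of the 18 other mouse clade B serpins listed, 15 had a probe and 3 were measured. Of these 0 were called, beside 5.4% in either direction over all genes tested. Serpinb6d had log2 ratios of 0.64 and 0.68, from signals of 209 in control RNA, not well above background, and 325 in transgenic RNA. Serpinb6c had ratios of 0.27 and 0.47. Their median with Serpinb11 was 0.37, which became -0.09 when centred on the spike-ins. The remaining 12 genes, Serpinb1b, Serpinb1c, Serpinb3d, Serpinb6b, Serpinb7, Serpinb9b, Serpinb9c, Serpinb9d, Serpinb9e, Serpinb9g, Serpinb10 and Serpinb13, had probes that were all dim in both channels, with mean log2 ratios from -0.27 to 0.66. Among them Serpinb7, a gene of the upper epidermis, lay at -0.27 and Serpinb13, whose product inhibits cathepsins L and K, at -0.05. The upper end belonged to a Serpinb1c probe whose arrays gave -0.23 and 1.54.

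Since Serpinb3b and Serpinb3c were both called higher and the probes named for Serpinb3a were dim in both pools, the promoters of these copies are shown. The array also lists Serpinb3a for the Serpinb3b probe, and the other Serpinb3c probe was dim too, so the probes do not settle how the copies differ. The TATA-box letters TATAAA are in capitals. The sequences are RefSeq's on GRCm38.p6, 250 bases before the annotated start, on the minus strand that carries the genes.
Serpinb3a, chr1:107052304-107052553: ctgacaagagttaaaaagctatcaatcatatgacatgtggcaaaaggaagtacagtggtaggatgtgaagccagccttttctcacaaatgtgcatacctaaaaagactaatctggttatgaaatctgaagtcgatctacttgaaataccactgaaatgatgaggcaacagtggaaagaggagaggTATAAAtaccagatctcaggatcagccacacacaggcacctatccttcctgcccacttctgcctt
Serpinb3b, chr1:107161115-107161364: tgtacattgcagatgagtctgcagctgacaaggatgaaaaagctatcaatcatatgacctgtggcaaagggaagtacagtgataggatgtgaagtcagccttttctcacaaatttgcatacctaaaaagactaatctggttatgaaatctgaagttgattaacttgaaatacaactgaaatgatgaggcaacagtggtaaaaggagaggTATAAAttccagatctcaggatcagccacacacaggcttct
Serpinb3c, chr1:107278372-107278621: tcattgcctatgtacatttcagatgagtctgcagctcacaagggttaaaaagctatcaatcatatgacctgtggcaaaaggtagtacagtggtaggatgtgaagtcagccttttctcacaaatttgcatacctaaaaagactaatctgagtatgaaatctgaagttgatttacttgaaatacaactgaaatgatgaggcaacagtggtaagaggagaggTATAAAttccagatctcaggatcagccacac
Aligned end to end, the promoters of Serpinb3b and Serpinb3c were equal at 88.1% of aligned positions (229 of 260). Those of Serpinb3a and Serpinb3b were equal at 77.0% (211 of 274) and those of Serpinb3a and Serpinb3c at 71.5% (203 of 284). Positions that face a gap count as unequal, and the 250-base windows of these copies are shifted against each other. The order of the 3 percentages therefore follows the shift too and does not show that the Serpinb3a promoter has diverged more. The 42 other pairs among the chromosome 1 serpins described here and Serpinb3d ranged from 42.1% to 50.2%. The letters TATAAA began 65 bases before the annotated start in Serpinb3a, 41 in Serpinb3b and 31 in Serpinb3c, so the annotated starts differ in where they fall relative to a shared stretch. On either strand TATAAA was in 12.4% of 32851 promoter windows of this length and in 7 of the 12 windows of the serpins described here, which belong to Serpinb2, Serpinb12 and the 3 Serpinb3 copies. The windows of Serpinb2 overlap and hold the same TATAAA, and those of the Serpinb3 copies resemble each other. The 12 windows are therefore not independent, and the count is not to be read against the share.

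Further motifs were searched on both strands of the same windows, and none overlaps the letters of TATAAA. The AP-1 letters TGANTCA were in 6.75% of all windows and in 5 of the 12, those of Serpinb2, Serpinb5, Serpinb8 and Serpinb12. The overlapping windows of Serpinb2 again hold the same site. In Serpinb12 they began 45 bases before 1 of its annotated starts, and in the windows of the Serpinb3 copies they were not found. The STAT letters TTCNNNGAA were in 7.02% of all windows and in 2 of the 12, those of Serpinb2 and Serpinb6a. Of the 10 serpins, 9 had a promoter window, and some had more than 1 annotated start. In Serpinb12 TATAAA began 220 and 201 bases before its starts, farther away than in Serpinb3b and Serpinb3c. In the uncalled Serpinb2 a single TATAAA lay 29 bases before one annotated start and 116 before the other. Among the motifs whose counts are given here, TATAAA was thus the 1 found for all 3 higher serpins, and the dim Serpinb3a and the uncalled Serpinb2 also held it.

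The proteases that clade B serpins are known to inhibit, or that act in skin, were described next. Of 36 listed, 35 had a probe and 25 were measured, of which 5 were higher, 1 was lower and 19 were not called, beside 3.72% higher and 1.68% lower over all genes tested. Their median log2 ratio was 0.43, beside -0.0079 for all genes. Centred on the spike-ins it was -0.03, but that centring takes the same 0.46 off the median of all genes, so the distance between the 2 medians is unchanged. Casp4, an inflammatory caspase, had log2 ratios of 2.23 and 2.41, from signals of 308 in control and 1449 in transgenic RNA. Klk6, a kallikrein with trypsin-like activity, had ratios of 2.16 and 2.25 and was dim in the control channel, with a bound of at least 3.62-fold on array 1. The remaining higher proteases were Ctss, Casp14, the caspase of cornifying keratinocytes, with a mean of 1.32, and Klk8, another kallikrein, with a mean of 1.03. Centred on the spike-ins 2 proteases were higher, Casp4 and Klk6, and 2 were lower, Ctse and St14, which encodes matriptase.

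Ctss encodes cathepsin S, a cysteine protease of antigen-presenting cells and a target of human SERPINB3. Its probe was well above background in both pools, at 1086 in control and 3984 in transgenic RNA, with log2 ratios of 1.87 and 1.42 and a mean of 3.13-fold. The other cathepsins of that kind were not called: the log2 means were 0.44 for Ctsl, 0.28 for Ctsk, 0.18 for Ctsb, 0.38 for Ctsh, 0.12 for Ctsz and -0.05 for Ctsc, which lay below 0 on both arrays. Ctse, an aspartic protease, was lower, at -1.39 and -3.12, but dim in the transgenic channel, where the bound on array 1 was at least 1.53-fold lower. The serine proteases paired with other serpins were mostly out of reach. Plau, which Serpinb2 inhibits, Elane, Prtn3 and Ctsg, known targets of human SERPINB1, and Gzmb, which Serpinb9 inhibits, had probes dim in both channels. Furin was measured at 0.33 and was not called.

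Of 23 listed serpins outside clade B, 20 had a probe and 5 were measured, with a median of 0.70 that became 0.24 when centred on the spike-ins. Serpina3g, a clade A serpin of immune cells, was the 1 called, beside 3.72% higher over all genes tested. It had log2 ratios of 1.05 and 1.60 from signals of 208 and 430. It was no longer called when centred on the spike-ins. Serpina3m had ratios of 1.42 and 0.93, and the array's Serpina3 genes are close copies, so values of single genes are uncertain. Serping1, the C1 inhibitor, lay at 0.70 and Serpinf1, which encodes pigment epithelium-derived factor, at 0.50.

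**Figure D4:**
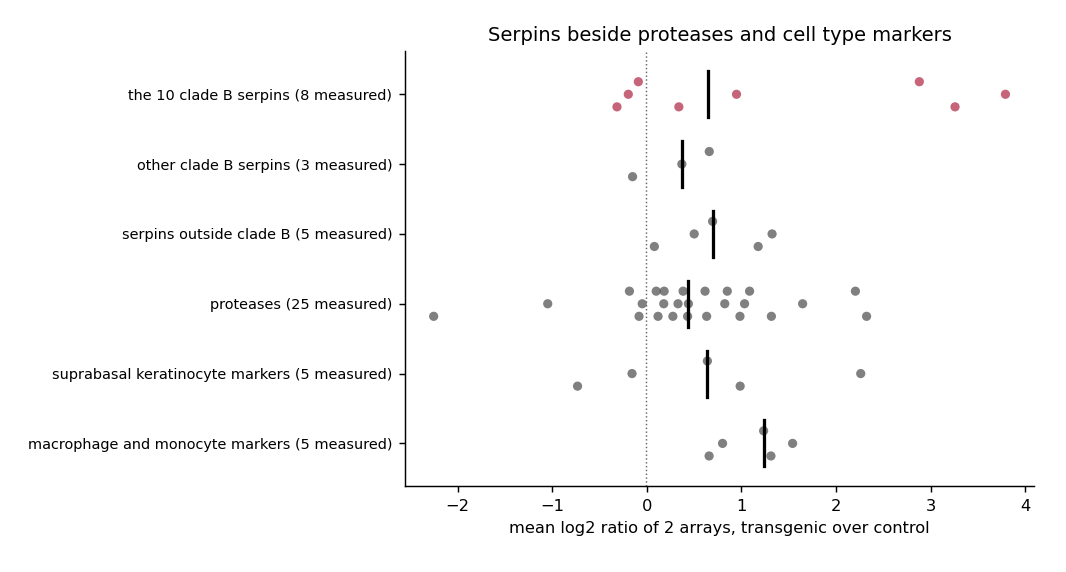
Mean log2 ratio of the 2 arrays (x axis) for measured genes of 6 lists (y axis): the 10 clade B serpins in red, the other clade B serpins, serpins outside clade B, proteases, and markers of suprabasal keratinocytes and of macrophages and monocytes in grey; each circle is a gene, thick bars are medians and the dotted line is the median of all genes tested. The serpins split into 5 genes between -0.32 and 0.95 and 3 genes between 2.88 and 3.79, with no gene between.

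Whole skin holds epidermis, hair follicles, dermis and blood-derived cells, and in such bulk RNA fewer cells of a type and less RNA per cell cannot be told apart. Markers of its cell types are given beside the serpins, and their part in the serpin values was not tested. All 5 basal keratinocyte markers were measured, with a median of 0.29 and Krt14 higher at 1.12, and their summed signal on array 1 was 137064 in control and 204468 in transgenic RNA. All 5 suprabasal markers were measured, with a median of 0.64 and Krt1 higher at 2.26, while Dsg1a lay at -0.73, and the summed signal was 67539 and 124844. Keratinocytes thus gave clear signal in both pools, and Krt14 and Krt1 stood higher while Dsg1a lay below 0. Centred on the spike-ins the basal median became -0.17, and Krt14, at 0.66, was no longer called.

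The 4 stressed keratinocyte markers had a median of 0.30, or -0.15 centred on the spike-ins, and a summed signal of 43360 and 52434. Krt16 was higher at 3.38 and 3 were not called, Krt6a at 0.53, Krt17 at 0.07 and Krt6b at -0.07. Krt6b changed sign between the arrays, at -0.38 and 0.24. Of 9 hair shaft keratins 7 were measured and all 7 were lower, with a median of -3.64 and a summed signal of 83320 in control and 10079 in transgenic RNA. All 7 lay below 0 on both arrays, unlike the epidermal keratins named above.

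White-cell markers were less fully measured. Of 7 macrophage and monocyte markers 5 were measured, all above 0 on both arrays, with a median of 1.23, Adgre1 higher at 1.31 and Lyz2 at 1.23, Cd68 and Itgam dim, and a summed signal of 10466 and 25118. Centred on the spike-ins their median was 0.78 and neither Adgre1, at 0.85, nor Lyz2, at 0.78, was called. Ptprc, the pan-leukocyte marker, differed between the arrays, at 2.91 and 0.17. Ptprc and Fcgr3 passed the filter through the transgenic channel alone, so their place above 0 on array 1 was partly set by the filter. Of 10 listed neutrophil genes S100a8 and S100a9 were measured and higher, at 5.90 and 6.95, with a summed signal of 400 in control and 47140 in transgenic RNA, and activated keratinocytes express both. S100a8 was dim in the control channel of array 1, where the bound was at least 26.4-fold. The neutrophil-defining Mpo, Elane, Ngp, Camp, Ltf, Retnlg and Cxcr2 had probes dim in both channels. Of 7 T and NK cell markers only Cd3e was measured, at 0.37 and dim in the control channel, with a summed signal of 215 and 268. Mast cell markers, 4 of 5 measured, had a median of 0.72, none (0) called, and a summed signal of 2035 and 2524. Of these Cpa3 lay at 0.98, Cma1 at 0.82 and Mcpt4 at 0.62, while Kit lay at -0.94, below 0 on both arrays. The 6 dermal fibroblast markers had a median of 0.17, none (0) called, and a summed signal of 411355 and 428401, with a median of -0.29 when centred on the spike-ins. For the white cells known to carry Serpinb1a and Serpinb9, macrophage markers were thus above 0 on both arrays, some admitted through the transgenic channel alone. Neutrophil and T cell genes were mostly below detection.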

How the data were processed

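The members and gene lists were chosen with earlier results of these data known. The deposited spot intensity values of array 1 come from Agilent Feature Extraction 9.5.1.1, which, per the file headers, subtracted background, removed spatial trends, normalised the dyes (linear and LOWESS) and replaced dim values by surrogates, which compresses ratios near background. The deposited value table holds log10 of Cy5 over Cy3 per array, not centred (medians 0.0145 and -0.0243). Array 1 matched the scanner signals at 43790 of 43790 features, within 1e-08. For array 2, whose scanner output was not used here, the direction followed from the labelled dyes: with control features left out (41534 kept), the deposited columns had a correlation of -0.579, and the 10 spike-in probes, which follow the dye, one of 0.9996.

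Here the deposited log10 ratios were converted to log2, array 2 was turned, and the arrays were averaged. Control spots and 29 outlier spots were left out, spots of a probe were averaged, and 41167 probes remained, of which 13339 entered because 1 or both channels of array 1 were well above background. The brightest such probe stood for a gene. Probes were named through RefSeq (GRCm38.p6) by accession (24370), symbol (6300) or synonym (2425); the others (8072) carry the name in the array file. One Serpinb6a probe matched by an older synonym only was left out. On array 1, 0 spots other than controls were saturated. Signals counted as well above background began at 199 in Cy3 and 190 in Cy5, and a bound divides the bright signal by that value or, if higher, by the dim one. The number of arrays limits the precision, and slide and scan could not be tested as batches.

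Genes were called by size (2-fold on each array), with no test. Named are the 10 serpins, all other clade B serpins with a probe, Pla2g2f, and from each other list mainly up to 4 genes with the largest absolute means; further proteases and markers were named for their role, after their values were seen. Alternatives were each array alone, other centrings (the spike-in median of 0.46 was taken off both arrays), other filters, the median over probes, and other thresholds. A further one was normexp (offset 50) with loess in limma 3.58.1 (R 4.3.3), run on array 1 only, with array 2 left as deposited. Promoters were aligned globally with Biopython 1.88 (match 2, mismatch -1, gap opening -5, extension -1).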

Additional observations from a re-analysis of the deposited data

How the results depend on the processing

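Over all alternatives run, Serpinb3b, Serpinb3c and Serpinb12 kept a log2 ratio above 0, from 2.57 to 3.81, 2.07 to 3.52 and 1.77 to 3.07, wherever they were measured. The lower ends average array 1 under normexp with array 2 as deposited, and the recomputed array 1 itself gave 1.36, 1.15 and 0.85. In no alternative did the dimmer probe of Serpinb3c or of Serpinb12 enter, so these ranges do not cover the disagreement between probes. Serpinb1a stayed above 0 (0.49 to 1.003) and Serpinb5 below it (-0.77 to -0.25). Serpinb2, Serpinb6a and Serpinb8 changed sign, with ranges of -0.55 to 0.21, -0.12 to 0.43 and -0.65 to 0.19. The count of 3 called serpins was 3 to 4 from an array alone, where 5.43% (array 1) and 4.97% (array 2) of all genes were higher. When both channels had to be well above background it was 0, because 4 of the 10 serpins were left and none of the 3 was among them (2.64% of all genes tested there were higher), and the contrast of Serpinb3 copies could not be given. With normexp and loess it was 2, Serpinb12 being lost (1.02% of all genes higher). The contrast of 3.67 was 3.48 to 3.68 from an array alone, 3.40 without the filter, where Serpinb3a entered, and 3.40 against all 7 others. It was 2.37 with normexp on array 1, averaged with array 2 as deposited. The 0 called among other clade B serpins became 1 at 1.5-fold (Serpinb6d), where 8.26% of all genes were higher. The 6 called proteases became 12 at 1.5-fold, 2 at 3-fold and 1 with normexp (Ctss), beside 12.1%, 2.25% and 1.56% of all genes in either direction, and were 7 to 8 from an array alone (8.05% and 7.45% of all genes). The 1 called serpin outside clade B became 3 at 1.5-fold (8.26% of all genes higher) and 2 without the filter (1.54%). The count became 0 at 3-fold (1.34%), 0 centred on the spike-ins (1.68%) and 0 with normexp (1.02%). From an array alone it was 1 to 2. For normexp and the spike-in centring the cause was not tested. No paired analysis was possible because the arrays form 1 group. Dim control channels leave the folds of the 3 higher serpins as bounds that hold for the deposited processing only. Having 2 arrays of 1 pool per genotype limits every value.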
